A study of Mus musculus with 12 samples.

Results

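The rows described here are the repeat families of the read-count table whose names mark long terminal repeat (LTR) elements and endogenous retroviruses. They were taken by the start of the name (RLTR, LTR, IAP, MMERV, MERV, MuRRS, MuLV, ERV, ETn, MMETn, MMVL30, MT, ORR1, MLT, MST, RMER, MER or BGLII), with no use of measured values. That gave 508 of the 1217 repeat rows, in a table of 25182 rows with 23965 gene rows. Each row sums the reads given to all copies of a family, so no single copy or genome position is measured. RNA was sequenced from neurospheres, free-floating cultures of neural progenitors, grown from E11.5 ventral midbrain of the CD-1 strain. After 3 days of expansion they received, for 5 h in N2 medium, the vehicle DMSO (Control), the liver X receptor agonist GW3965, the glycogen synthase kinase inhibitor CT99021, or GW3965+CT99021. Each of these 4 groups had 3 libraries, and no genetic change was labelled in any of them. Whether the libraries of a group came from separate cultures is not stated, and p-values speak only of how far these libraries differ, part of which may be technical.

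LTR elements are copies of retroviruses that entered the germ line. A complete copy carries an internal part with retroviral genes between a pair of identical LTRs, and the LTRs hold its promoter and polyadenylation signal. Recombination between the LTRs leaves a solitary LTR, the commonest form in the genome. Rows with names ending in "-int" are internal parts and the others are mostly LTRs. In mouse embryonic cells most families are kept silent by KRAB zinc finger proteins with TRIM28 and SETDB1 and by DNA methylation, and some, such as the intracisternal A particle (IAP) and early transposon (ETn) families, still insert into new places.

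Levels are CPM, counts per 1000000 of a library's total over gene rows, and that total ran from 9646424 to 21314093 counts. CT99021 replicate 1 stood apart and is given on its own: Lars2 took 7.95% of its gene counts, against 0.0336% to 0.142% in the other 11 libraries, and its repeat rows together reached 6467 CPM, against 1969 to 3291 CPM. Some LTR rows were far higher there than in any other library, RLTR10 with 19.9 CPM against at most 8.19 CPM among them. Fits and means therefore rest on 11 libraries, with 2 for CT99021. Once group means were removed, libraries of different groups resembled each other more if they shared a replicate number than if they did not. Each test was therefore run once without and once with a block for replicate number. The fit without the block was planned as the main fit, with the block as an alternative. In that main fit no LTR row passed in any comparison. The words "fell" and "rose" are used only of rows past an adjusted p of 0.05 with the block. With the block the treatments' own targets responded: Axin2, a Wnt feedback gene, rose by a log2 fold change of 1.61 ± 0.15 (SE) with CT99021, and Abca1, a cholesterol exporter and liver X receptor target, rose by 1.90 ± 0.16 with GW3965. Markers of the labelled type were expressed: the 9 progenitor markers, Nes, Sox2, Foxa2 and Lmx1a among them, summed to between 2751 and 4653 CPM in the 11 libraries. RNA of erythroid cells was also present, with 4 markers, Hbb-b1 and Hbb-y among them, at 2051 to 11018 CPM.

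**Figure D1:**
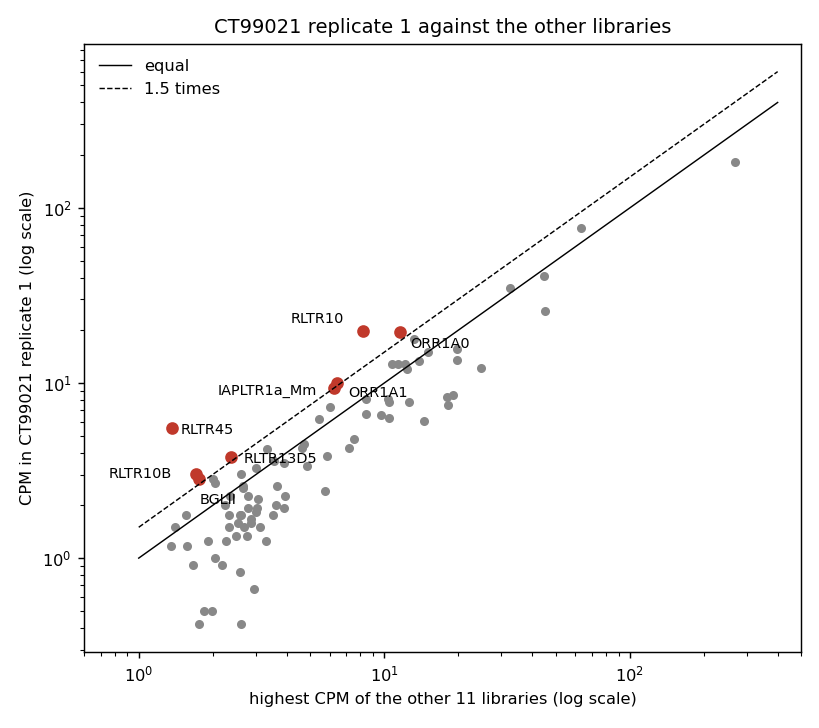
CPM in CT99021 replicate 1 (vertical axis, log scale) against the highest CPM of the other 11 libraries (horizontal axis, log scale) for the 91 LTR rows at a mean of 1 CPM or more. The 8 named rows lie at 1.5 times (dashed line) or more, RLTR10 at 19.9 against 8.19 CPM.

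LTR rows were a small part of these libraries. Their summed level was 759, 858 and 718 CPM in Control replicates 1, 2 and 3 and 819, 934 and 750 CPM with GW3965. It was 765 and 669 CPM in CT99021 replicates 2 and 3, and 590, 590 and 691 CPM with both compounds. That is 0.0590% to 0.0934% of gene counts, and 22.7% to 31.0% of all repeat counts, in the 11 libraries. The libraries with both compounds were the lowest group by mean, and their highest lay under the lowest Control library. In total 149 rows had no count in any library, which allows a level of up to 0.0161 CPM over the 12 libraries, a limit that covers counting error only. A mean of 1 CPM or more was reached by 91 rows, and the 20 highest rows held 67.0% of the summed level. The filter on low counts let 139 rows into the tests, among them all 91 rows at 1 CPM or more, and those 139 held 96.9% of the summed level.

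**Figure D2:**
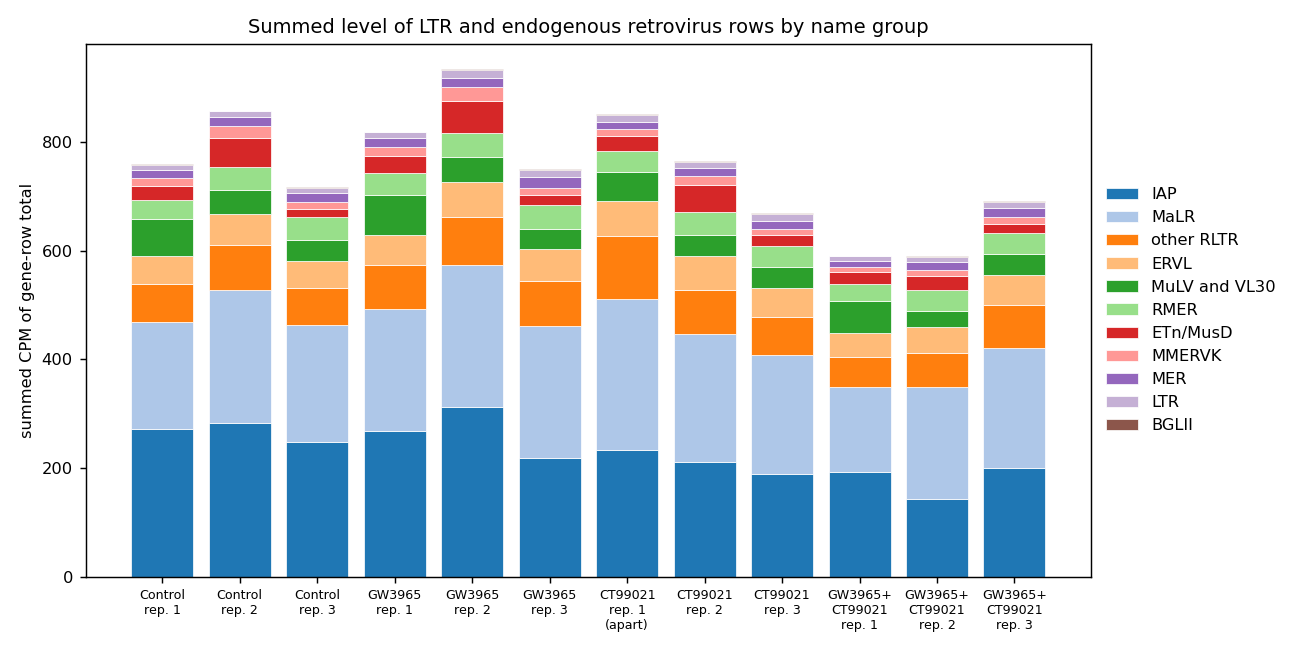
Summed CPM of the gene-row total (vertical axis) of all LTR and endogenous retrovirus rows in each of the 12 libraries, stacked by name group. IAP rows and MaLR rows make up the largest 2 segments of every bar, and the 3 GW3965+CT99021 libraries reach 590 to 691 CPM.

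IAP rows were first by share over the 11 libraries, just above MaLR rows. Most IAPs are retroviruses without an envelope, and their particles assemble in the endoplasmic reticulum. Only 16 rows carry an IAP name, and they held 31.1% of the summed level, at 12.2 CPM per Mb of the length that the table lists for them. The mammalian apparent LTR retrotransposons (MaLR; rows named MT, ORR1, MST and most MLT), old elements that lack retroviral genes of their own, held 29.8% in 102 rows, at 2.01 CPM per Mb. The order of these groups was not the same in every library: MaLR rows summed higher than IAP rows in 4 of the 5 libraries with CT99021 (235 against 212, 219 against 188, 207 against 143 and 221 against 200 CPM) and in GW3965 replicate 3 (243 against 219 CPM), and lower in the remaining 6. The group of murine leukaemia virus (MuLV) and VL30 rows followed IAP per length, at 8.44 CPM per Mb over 8 rows. The remaining RLTR rows held 10.1% (98 rows), ERVL rows 7.39% (20), RMER rows 5.33% (43), ETn and MusD rows 4.19% (5) and MMERVK rows 2.01% (2). MER and LTR names covered 210 rows but only 3.61% of the summed level, and 100 of these rows had no count; some MER names belong to DNA transposons, which the name rule cannot part from LTR elements. Internal parts held 48.9% of the summed level in 111 rows, at 5.24 CPM per Mb against 1.85 CPM per Mb for the other 397 rows.

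A single row, IAPEz-int, the internal part of the active IAP families, carried 20.6% to 31.7% of all LTR counts in the 11 libraries. Its mean was 201 CPM, or 17.9 CPM per Mb. The next rows by level were MTA_Mm and MTA_Mm-int, the LTR and internal part of a young MaLR family, at 50.7 and 33.6 CPM, MERVL-int, the internal part of the retrovirus known from 2-cell embryos, at 28.4 CPM, and MMVL30-int, the internal part of VL30, at 20.7 CPM. Per length the order was different. RLTR4_Mm, the LTR of MuLV, had the highest density of the rows at 1 CPM or more, at 152 CPM per Mb of its 0.102 Mb. MMVL30-int followed among the rows named here with 32.8, IAPLTR1_Mm, an IAP LTR, with 27.8, ETnERV-int, a MusD-type internal part, with 15.6, and MERVL-int with 7.08 CPM per Mb. The internal parts of MuLV and of MuRRS, which is in the same name group, were near or at 0. RLTR4_MM-int had a mean of 0.111 CPM. MuLV-int and MuRRS-int had 0 counts in the 11 libraries, which allows up to 0.0172 CPM. Reads with several positions can be given to 1 or many families, and how that was done is not given in the sources used here, so densities of closely related rows are uncertain.

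The first question is how LTR RNA responded to CT99021, which was added with and without GW3965. Among the 11 libraries, IAPEz-int was lower in every library with CT99021 than in any library without it. Control replicates 1, 2 and 3 had 240, 245 and 217 CPM and GW3965 replicates 235, 269 and 192 CPM. CT99021 replicates 2 and 3 had 177 and 165 CPM, and the GW3965+CT99021 replicates 170, 121 and 176 CPM. The 5 libraries with CT99021 averaged 162 ± 23.1 CPM (SD, n = 5) and the 6 without it 233 ± 26.2 CPM (SD, n = 6). CT99021 replicate 1, kept apart, had 184 CPM, a little under GW3965 replicate 3. Lars2 took 7.95% of the gene total of CT99021 replicate 1, which lowers its other CPM values. The side on which this library lies is therefore not settled. Every replicate pair against Control moved down, by log2 ratios of -0.47 and -0.40 for CT99021 replicates 2 and 3 and -0.50, -1.01 and -0.31 for both compounds. Fewer cells with IAP RNA and less IAP RNA per cell cannot be told apart in such bulk samples.

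**Figure D3:**
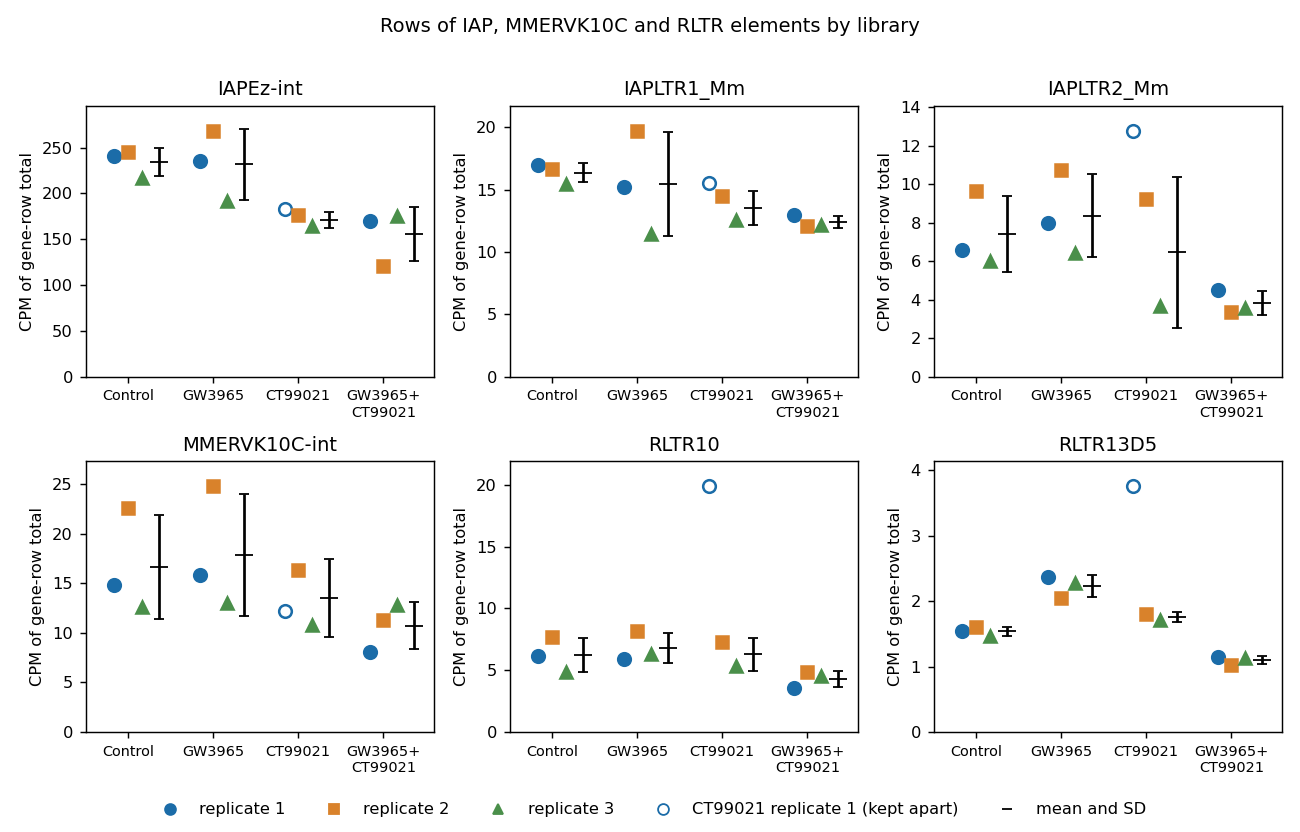
CPM of the gene-row total (vertical axis) of 6 rows in each library by treatment, with the mean and SD of each group (n = 3, and n = 2 for CT99021, whose replicate 1 is drawn open and left out of the mean). In IAPEz-int all filled points with CT99021 lie under those without it, whereas in IAPLTR2_Mm and MMERVK10C-int the groups overlap.

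The average over both backgrounds is a contrast chosen after the data were seen. In it IAPEz-int had a log2 fold change with CT99021 of -0.49 ± 0.13 without the block (edgeR adjusted p = 0.103). With the block it fell by 0.46 ± 0.11 on the log2 scale (adjusted p = 0.0153). The call held in 17 of 19 alternatives with the block, each of the 11 single libraries left out included, with values of -0.57 to -0.37. It was lost when the repeat rows were fitted on their own (adjusted p = 0.0737) and when libraries were scaled to the other repeat rows (-0.38, adjusted p = 0.199). In the single comparisons with the block the fall was 0.57 ± 0.15 with both compounds against Control (adjusted p = 0.0291) and 0.53 ± 0.15 with both against GW3965 (adjusted p = 0.0354). CT99021 alone against Control had -0.39 ± 0.17, which did not pass (adjusted p = 0.208). The interaction of the compounds was -0.14 ± 0.23 (adjusted p = 1.0), so the change with CT99021 was not shown to differ between the backgrounds. Without the block none of these 3 comparisons passed for this row (adjusted p = 0.877, 0.244 and 0.298 for CT99021, for both against Control and for both against GW3965). Both against Control with the block lost its call without Control replicate 1, 2 or 3 (adjusted p = 0.0821, 0.112 and 0.0721) or without GW3965+CT99021 replicate 1 or 2 (adjusted p = 0.0685 and 0.0517), with values of -0.62 to -0.37, and when repeat rows were fitted on their own (adjusted p = 0.106) or scaled to the other repeat rows (adjusted p = 0.233). Both against GW3965 lost its call in 7 of 19 alternatives with the block: without replicate 1 or 2 of Control, of GW3965 or of GW3965+CT99021, and scaled to the other repeat rows, with adjusted p up to 0.228.

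Across all LTR rows, few passed a test. In CT99021 over both backgrounds 5 of 139 rows fell with the block (3.6%) and 0 rose. Over all 16157 rows tested, 28.6% were called in the same fit, 13.4% lower and 15.2% higher. The 5 were IAPEz-int, IAPLTR2_Mm, an IAP LTR, MMERVK10C-int, the internal part of a betaretrovirus-like family, MMVL30-int and MTA_Mm. Their log2 fold changes were -0.46 ± 0.11, -0.63 ± 0.18, -0.52 ± 0.15, -0.31 ± 0.09 and -0.23 ± 0.08. Of 19 alternatives with the block the call of IAPLTR2_Mm and of MMERVK10C-int each held in 10, that of MMVL30-int in 11 and that of MTA_Mm in 6. With all 12 libraries and the block MTA_Mm had 0.02 (adjusted p = 0.938) and IAPLTR2_Mm lost its call (adjusted p = 0.187). Of the 139 rows 108 lay under 0, with a median of -0.22, against -0.01 over all rows tested. Without the block edgeR called 0 LTR rows (4 at an unadjusted p under 0.05) and 1.01% of all rows (0.724% lower, 0.285% higher), and DESeq2 called 1 LTR row. Without Control replicate 2, GW3965 replicate 1 or GW3965 replicate 2 a single row remained called with the block, and without GW3965+CT99021 replicate 3 there were 11. Over the 11 libraries 2 rows, IAPEz-int and RLTR10A, had all libraries with CT99021 under all without it (1.44%, against 3.47% of all rows tested), and 0 had the reverse (2.20% of all rows).

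**Figure D4:**
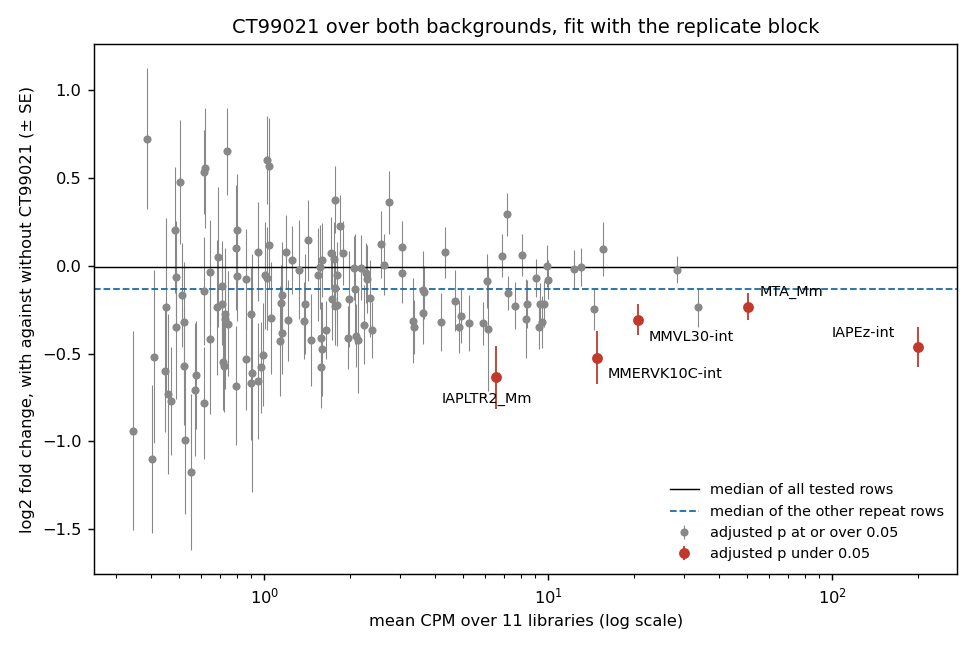
Log2 fold change with against without CT99021 over both backgrounds, with its SE (vertical axis), against mean CPM over 11 libraries (horizontal axis, log scale), for the 139 LTR rows tested with the replicate block. The 5 rows past an adjusted p of 0.05 are named, and most points lie under both the median of all tested rows (-0.01) and that of the other repeat rows (-0.13).

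IAPLTR2_Mm had 6.57, 9.66 and 6.03 CPM in Control, 7.97, 10.7 and 6.43 with GW3965, 9.25 and 3.70 in CT99021 replicates 2 and 3, and 4.52, 3.37 and 3.57 with both compounds. It was low in all 3 libraries with both compounds and in CT99021 replicate 3, while CT99021 replicate 2 was as high as the libraries without the inhibitor. MMERVK10C-int had 14.8, 22.6 and 12.6 CPM in Control, 15.8, 24.8 and 13.0 with GW3965, 16.3 and 10.7 with CT99021, and 8.10, 11.3 and 12.8 with both. Here GW3965+CT99021 replicate 3 was no lower than Control replicate 3, so the groups overlapped. IAPLTR1_Mm, the other abundant IAP LTR, had 16.9, 16.7 and 15.5 CPM in Control, 15.2, 19.7 and 11.4 with GW3965, 14.5 and 12.6 with CT99021, and 12.9, 12.1 and 12.2 with both compounds. GW3965 replicate 3 was the lowest of the 11 libraries. Its log2 fold change over both backgrounds, -0.25 ± 0.11, did not pass (adjusted p = 0.136). The IAP rows summed to 143 to 212 CPM in the 5 libraries with CT99021 and to 219 to 311 CPM in the 6 without. Without IAPEz-int the sum of all LTR rows was 420 to 588 CPM with and 500 to 666 CPM without CT99021, and overlapped.

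With CT99021 alone against Control, 0 of 139 LTR rows passed with the block (5 at an unadjusted p under 0.05), while 6.53% of all rows tested were called, 3.32% higher and 3.21% lower. Without the block the count of LTR rows was also 0 (1 at an unadjusted p under 0.05), and DESeq2 without the block called 0. The median of LTR rows was -0.03, against 0.01 over all rows. In this comparison 19 rows were higher in both CT99021 libraries than in any Control library (13.7%, against 9.38% of all rows) and 9 were lower (6.47%, against 11.4%). The higher ones included MERVL-int, ORR1A0, RLTR13D5 and MT2B, and the lower ones IAPEz-int, IAPLTR1_Mm, MMVL30-int and RLTR10A. For MMVL30-int the margin was very small, with a log2 ratio of -0.008 between CT99021 replicate 3 and Control replicate 3. Its log2 fold change with the block was -0.07 ± 0.13 (edgeR adjusted p = 0.815). With only 2 libraries of CT99021 such an order is weak evidence about any row.

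With both compounds against Control 4 rows fell with the block, 2.88% of the LTR rows against 9.84% of all rows tested, and 0 rose (10.2% of all rows). They were IAPEz-int, IAPLTR2_Mm (-0.89 ± 0.24), MMVL30-int (-0.47 ± 0.12) and RLTR10 (-0.52 ± 0.16, adjusted p just under 0.05), the last an LTR family of the ERVK class. RLTR10 had 6.15, 7.66 and 4.89 CPM in Control and 3.59, 4.83 and 4.52 with both compounds, so all 3 libraries lay under the lowest Control library by a small margin. Its call held in 5 of 19 alternatives with the block, against 11 for IAPLTR2_Mm, 12 for IAPEz-int and 13 for MMVL30-int. Without the block 0 LTR rows were called (3 at an unadjusted p under 0.05), against 0.0928% of all rows (0.0805% lower), and DESeq2 without the block also called 0. With the block the count became 0 without Control replicate 2 and 0 without GW3965+CT99021 replicate 2, 1 without Control replicate 1 or 3, 2 without GW3965 replicate 1, and 9 without GW3965+CT99021 replicate 3. In 19 rows all libraries with both compounds lay under all Control libraries (13.7%, against 9.49% of all rows) and in 6 they lay above (4.32%, against 7.61%). The median over LTR rows was -0.19, against -0.02 over all rows. The summed level was 0.801 times that of Control, from 778 ± 72.3 to 624 ± 58.4 CPM (SD, n = 3), and 0.861 times without IAPEz-int.

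Both compounds against GW3965 gave the most LTR calls: 14 rows fell with the block, 10.1% against 9.68% of all rows tested, and 0 rose (10.4% of all rows, 20.1% in either direction). That share is at the background. The rows came from several families: IAPEz-int, IAPLTR2_Mm (-1.05 ± 0.24) and IAPLTR2b of the IAPs; MMETn-int (-0.61 ± 0.17) and RLTRETN_Mm (-0.50 ± 0.15), internal part and LTR of ETn elements; MMERVK10C-int; MMVL30-int (-0.54 ± 0.12); the MaLR rows MTA_Mm (-0.38 ± 0.10), ORR1A1 (-0.72 ± 0.20) and ORR1D2 (-0.77 ± 0.21); MT2B2, an ERVL LTR (-0.71 ± 0.20); and RLTR1B (-0.69 ± 0.18), RLTR10 (-0.62 ± 0.16) and RLTR13D5 (-0.98 ± 0.22). IAPLTR2b has a mean of 0.949 CPM and is named to complete the 14. Of 19 alternatives with the block the calls held in 5 (IAPLTR2b) to 16 (MMVL30-int). Without the block edgeR called 0 (16 at an unadjusted p under 0.05) and 0.0619% of all rows, all lower, and DESeq2 also called 0. With the block the count became 0 without GW3965 replicate 1 or 2, 1 without GW3965+CT99021 replicate 2, 4 without GW3965+CT99021 replicate 1, and 7 without Control replicate 1 or 2. The comparisons share libraries: both against Control and both against GW3965 use the same 3 GW3965+CT99021 libraries, and CT99021 and GW3965 are each set against the same Control libraries.

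RLTR13D5, an ERVK LTR known from enhancers of the trophoblast, differed little within groups. It had 1.55, 1.60 and 1.47 CPM in Control, 2.37, 2.05 and 2.28 with GW3965, 1.81 and 1.71 with CT99021, and 1.14, 1.02 and 1.13 with both. All libraries with 1 compound lay above Control and all with both lay under it. The interaction of -1.23 ± 0.33 with the block did not pass over all rows (adjusted p = 1.0), and CT99021 replicate 1 stood at 3.76 CPM.

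Repeat rows outside the LTR set had medians of the same sign, although few of them passed. The 182 other repeat rows tested had a median log2 fold change of -0.13 in CT99021 over both backgrounds, -0.14 with both compounds against Control and -0.26 with both against GW3965, where the LTR medians were -0.22, -0.19 and -0.29. Of the 182, 10 were called lower and 1 higher over both backgrounds, 5 lower and 0 higher with both compounds against Control, and 17 lower and 0 higher with both against GW3965, all with the block. GW3965+CT99021 replicate 1 had the lowest level of other repeats, 1378 CPM against 1691 to 2541 CPM in the remaining 10 libraries, and also the lowest sum of 6 B1, B2, B3 and ID SINE rows, 337 CPM against 445 to 785 CPM. Per 1000 counts of other repeats, IAPEz-int had 142, 121 and 99.8 counts in Control, 125, 121 and 75.4 with GW3965, 89.9 and 75.2 with CT99021, and 123, 60.5 and 79.3 with both. On that scale GW3965+CT99021 replicate 1 was as high as Control, and the groups overlapped. Libraries were also scaled to the other repeat rows, in a fit that held repeat rows only. None of the calls above was kept there with the block, while the folds stayed under 0. With both compounds against GW3965 they then ran from -1.31 for IAPLTR2b, -0.87 for IAPLTR2_Mm and -0.80 for RLTR13D5 to -0.21 for MTA_Mm, at adjusted p of 0.135 to 0.279. Over both backgrounds they ran from -0.54 for IAPLTR2_Mm to -0.15 for MTA_Mm. Calls over both backgrounds and with both compounds against Control were also lost with repeat rows fitted on their own without this scaling. For those calls the scaling and the smaller set of rows cannot be told apart. The part that the total of repeat reads has in the LTR values was not tested further.

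GW3965 against Control asks whether activation of the liver X receptor alone changed LTR RNA. No LTR row passed: edgeR called 0 of 139 with the block (3 at an unadjusted p under 0.05) and 0 without it (0 at an unadjusted p under 0.05), and DESeq2 called 0 with either design. Over all rows 0.0186% were called with the block, all higher. IAPEz-int had a log2 fold change of -0.03 ± 0.15 with the block (adjusted p = 0.983) and moved in both directions over the replicate pairs, at -0.03, 0.13 and -0.18. Most LTR rows lay slightly above 0: 106 of 139, and 79 of the 91 at 1 CPM or more, with a median of 0.14 against -0.01 over all rows and 0.12 over the other repeat rows. In 13 rows all GW3965 libraries were above all Control libraries (9.35%, against 1.76% of all rows), among them RLTR10-int, ORR1A0, MT2B and RLTR13D5, and in 1 row, RMER6A, they were all under them (0.719%, against 1.29%). Log2 fold changes of the 13 with the block ran from 0.14 ± 0.15 for MT2B to 1.02 ± 0.58 for RLTR13B3, with 0.52 ± 0.21 for RLTR13D5, at an adjusted p of 0.917 each. The summed level with GW3965 was 1.07 times that of Control, 834 ± 92.9 against 778 ± 72.3 CPM (SD, n = 3), and the groups overlapped.

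MERVL-int, whose LTR MT2_Mm drives a programme of the early embryo, passed in no comparison. It had 26.2, 26.9 and 28.4 CPM in Control, 27.0, 32.5 and 32.2 with GW3965, 31.8 and 28.7 with CT99021, and 24.2, 24.5 and 30.4 with both. Its log2 fold change with CT99021 over both backgrounds was -0.02 ± 0.08 with the block (adjusted p = 0.852). RLTR4_Mm, at 10.8 to 19.9 CPM in the 11 libraries, had 0.10 ± 0.16 in the same contrast (adjusted p = 0.675). MT2_Mm had 7.25 to 10.8 CPM without and 5.71 to 12.1 CPM with CT99021, with -0.22 ± 0.13 (adjusted p = 0.258). The interaction and both compounds against CT99021 called 0 LTR rows with and without the block (16 and 11 at an unadjusted p under 0.05 with it, 2 and 2 without), and 0 and 0.0124% of all rows with the block; DESeq2 called 0 in each as well. A small change in most rows would not have been detectable: the median SE with the block was 0.30 for LTR rows and 0.12 for gene rows, with median mean counts of 25.2 and 393 per library.

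The replicate number went with larger differences than any treatment in several retroviral rows. In the fit with the block 35 of 139 LTR rows (25.2%) differed between the numbers, against 64.4% of all rows tested. MMVL30-int was high in the libraries numbered 1, at 39.5 CPM in Control, 45.1 with GW3965 and 32.4 with both compounds, and lay between 8.71 and 16.2 CPM in those numbered 2 and 3. Relative to number 1 its log2 differences were -1.57 for number 2 and -1.48 for number 3 (edgeR adjusted p = 1.0e-05). RLTR6-int, a row of the same group, ran from 7.12 to 10.4 CPM in number 1, 2.64 to 5.80 in number 2 and 2.67 to 3.51 in number 3.

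ETn and MusD rows parted the numbers another way. ETnERV-int had 5.54, 14.2 and 0.897 CPM in Control replicates 1, 2 and 3, and 7.68, 14.5 and 0.622 CPM with GW3965. It had 14.3 and 1.09 CPM in CT99021 replicates 2 and 3, and 5.61, 2.20 and 0.783 CPM with both compounds. The libraries numbered 2 were high, those numbered 3 low, and GW3965+CT99021 replicate 2 was the exception among those numbered 2. The log2 difference of number 3 from number 1 was -3.14 and that of number 2 was 0.52 (adjusted p = 4.9e-04). RLTRETN_Mm had 14.7, 19.1, 13.4 and 10.5 CPM in the 4 libraries numbered 2 and at most 8.54 CPM in the other 7. MMETn-int had 15.9, 18.2 and 15.0 CPM in number 2 of Control, GW3965 and CT99021, 8.42 CPM in GW3965+CT99021 replicate 2, and at most 9.39 CPM elsewhere. MTA_Mm was lower in number 1, at 27.7 to 45.5 CPM, than in numbers 2 and 3, at 48.2 to 63.5 CPM. The labels do not say what a number stands for, and CD-1 is an outbred stock. Whether these rows follow animals, cultures or library preparation was not tested.

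**Figure D5:**
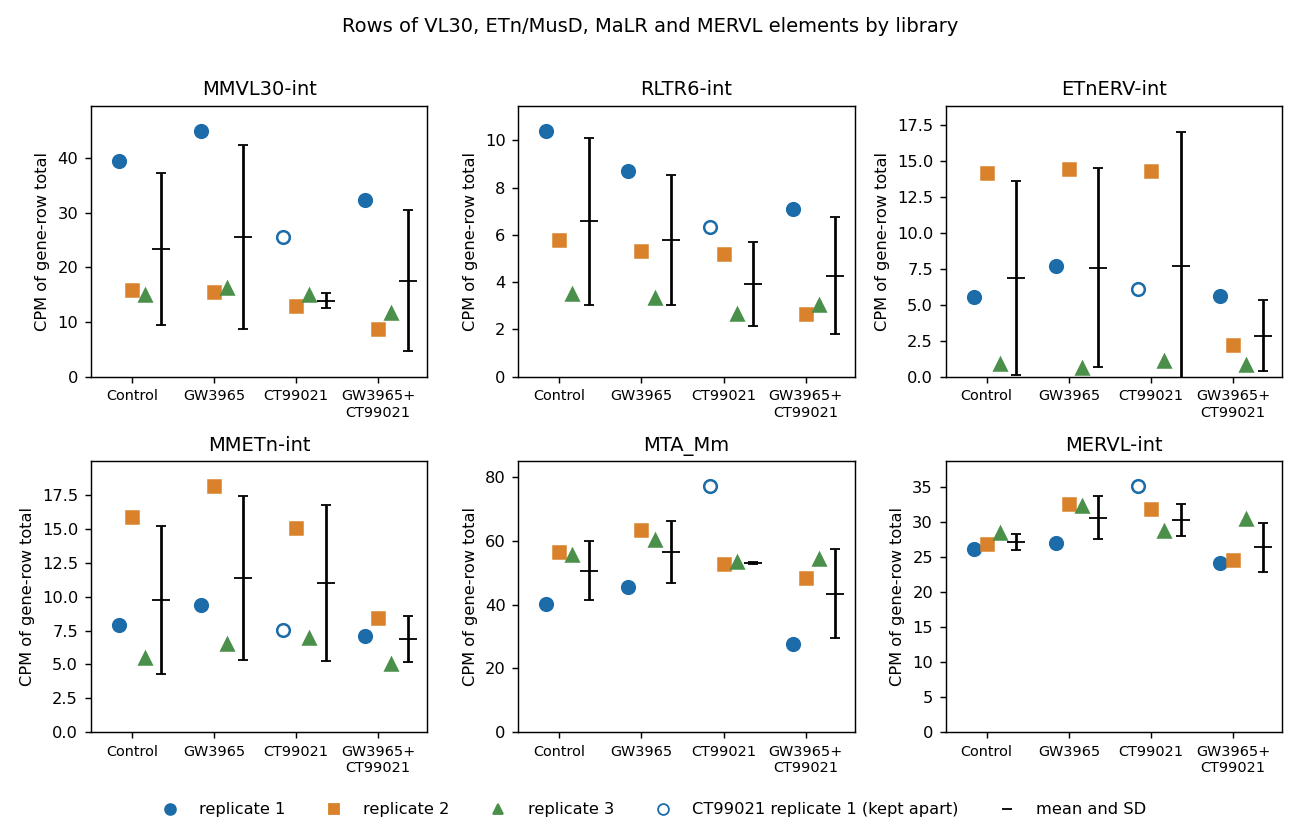
CPM of the gene-row total (vertical axis) of 6 rows in each library by treatment, with replicate numbers by colour and shape and the mean and SD of each group (n = 3, and n = 2 for CT99021, with replicate 1 drawn open; an SD bar that would pass below 0 ends at the axis). MMVL30-int is highest in every group's replicate 1, ETnERV-int is lowest in every group's replicate 3, and MERVL-int lies between 24.2 and 32.5 CPM in the filled points.

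Genes that silence LTR elements are the next group. Of 46 listed genes, from the TRIM28 and SETDB1 complexes, DNA methylation, the HUSH complex, histone H3.3 deposition and heterochromatin, 43 were in the table and tested. With CT99021 alone 1 rose with the block, Suv39h2, a histone H3K9 methyltransferase gene (0.58 ± 0.12), and 0 fell. With both compounds 2 rose, Suv39h2 (0.59 ± 0.10) and Pphln1, a HUSH subunit (0.22 ± 0.06), and 5 fell. The 5 were Suv420h2, a histone H4K20 methyltransferase gene (-1.14 ± 0.19), Ring1 (-0.76 ± 0.18), Dnmt3a, a de novo DNA methyltransferase gene (-0.42 ± 0.09), H3f3b (-0.27 ± 0.07) and Atf7ip (-0.24 ± 0.07). In CT99021 over both backgrounds 8 rose and 7 fell, with a median of 0.02 against -0.01 over all rows. Trim28, the corepressor itself, had 543, 623 and 436 CPM in Control and 654 and 528 with CT99021, and rose by 0.20 ± 0.05 over both backgrounds. In the same fits 10.2% of all rows rose and 9.84% fell with both compounds, and 15.2% rose and 13.4% fell over both backgrounds, so counts of this size in 43 genes are near the background. With GW3965 alone 0 of the 43 passed, and without the block 0 passed in any comparison.

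Dnmt3a had 243, 219 and 233 CPM in Control and 241, 229 and 224 with GW3965. It had 149 and 195 CPM with CT99021, replicate 1 left out, and 186, 139 and 190 with both. Among these 11 libraries all with CT99021 were under all without it, as was so for 3.47% of all rows tested. Dnmt3a was picked from the list of silencing genes, and how many others of that list did the same is not given here. Tet2, which starts DNA demethylation, was the 1 of 4 demethylation genes to pass and fell by 0.50 ± 0.08 with CT99021 and by 0.46 ± 0.07 with both. Of 11 restriction factors and nucleases, such as Fv1, Apobec3 and Samhd1, 0 passed in any comparison with or without the block. Of 19 tested genes of nucleic acid sensing and the interferon response, 0 passed in CT99021 or both against Control, and 1, Tlr3, a sensor of double-stranded RNA, fell over both backgrounds (-0.99 ± 0.27). Of 13 tested genes derived from LTR elements, Zcchc16 rose with both compounds (0.99 ± 0.27) and Ldoc1l (-0.70 ± 0.13) and Pnma2 (-0.41 ± 0.12) fell, a count near the 10.2% and 9.84% of all rows in that fit. Of 4 receptors used by murine retroviruses, Slc20a2, the receptor of amphotropic MuLV, rose with CT99021 (0.57 ± 0.09) and Xpr1, that of xenotropic MuLV, fell (-0.43 ± 0.09). Over all rows 3.32% rose and 3.21% fell in CT99021 against Control, and 13.4% fell over both backgrounds. Without the block 0 genes of these lists passed in any comparison.

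Markers of other cell types were read beside these rows. In CT99021 over both backgrounds 5 of 7 mesenchyme markers rose, among them Twist1 (1.16 ± 0.15), 6 of 9 progenitor markers fell, among them Sox1 (-0.70 ± 0.07), and 1 of 4 microglia and 1 of 4 endothelial markers fell. Of 3 neuron markers Tubb3 rose (0.40 ± 0.05) and Dcx (-0.32 ± 0.07) and Th (-1.23 ± 0.28) fell, and of 4 erythroid markers 0 passed. Over all rows 15.2% rose and 13.4% fell in this fit, and without the block 0 of these markers passed. The mesenchyme list summed to 274 to 2891 CPM in Control, 288 to 2516 with GW3965, 358 and 3822 with CT99021 and 910 to 3103 with both, so the groups overlapped. The microglia list summed to 12.1 to 20.5 CPM in Control and 6.52 to 11.3 CPM with both compounds. The erythroid list summed to 3167 to 11018 CPM in Control, 2051 to 8893 with GW3965, 5814 and 8462 with CT99021 and 2338 to 6861 with both, where 1 of its 4 genes, Hbb-y, fell against Control (-0.45 ± 0.12). The 6 markers of pluripotent and germ cells, in which many LTR families are active, summed to 3.32 to 11.9 CPM in the 11 libraries. Most of that was Nanog, at 3.07 CPM or more in each, while Pou5f1 and Zfp42 were at 0 or at most 0.0684 CPM. The part of these cell types in the LTR values was not tested.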

How the data were processed

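The deposited table of the authors holds whole, unnormalized read counts of 12 libraries for gene rows and repeat families. The submitters' processing notes name Bowtie and mm9. Not given in the sources used here are the counter, the repeat annotation, the strand setting and how reads with several positions were counted. The length listed beside each repeat row was taken as the family's summed length. CPM was computed as count over the gene-row total of the library.

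Rows were tested with edgeR 4.0.16 (R 4.3.3) by its quasi-likelihood F test. It was fitted to 11 libraries of all 4 groups and to gene and repeat rows together, with library totals and TMM factors from gene rows, the filterByExpr filter and Benjamini-Hochberg adjustment over 16157 rows, at a threshold of 0.05. DESeq2 1.42.0 was an alternative. The edgeR fits without and with the block were tested on simulated data, and DESeq2 was not. CT99021 over both backgrounds is the mean of CT99021 and GW3965+CT99021 against the mean of Control and GW3965, a contrast chosen after the data were seen, as were the test of replicate numbers, the scaling to other repeat rows, the sums without IAPEz-int and the fit without the libraries numbered 3 and GW3965+CT99021 replicate 2.

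Between libraries of different groups, deviations from group means correlated at 0.532 to 0.825 in the 15 same-number pairs. Pairs of different numbers had -0.825 to 0.465. All 11 libraries had their closest match in other groups under their own number. The numbers were therefore taken to pair the libraries, on the data and not the labels. The block lowered the common biological coefficient of variation from 34.0% to 11.8%. Libraries of 1 group differed beyond sampling noise in every pair (chi-square of 28.2 to 136 per gene).

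Rows named are the 20 highest, those past the test at 1 CPM or more (the 10 largest changes each way), and a fixed set of prototype rows; RLTR10A, RLTR10B, RLTR13B3, RLTR45, RMER6A and IAPLTR2b were chosen after their values were seen. The members, gene lists and markers were chosen with earlier results of these data known.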

Additional observations from a re-analysis of the deposited data

Results flagged for a closer look

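CT99021 replicate 1, which entered no mean or fit, held 8 LTR rows at 1.5 times or more the highest level of the other 11 libraries, among the 91 rows with a mean of 1 CPM or more. RLTR45 had 5.52 CPM there and at most 1.37 CPM elsewhere, and RLTR10 had 19.9 CPM against at most 8.19 CPM. ORR1A0 had 19.6 CPM (at most 11.6 elsewhere), ORR1A1 10.03 CPM (6.42), IAPLTR1a_Mm 9.36 CPM (6.21), RLTR13D5 3.76 CPM (2.37), RLTR10B 3.01 CPM (1.71) and BGLII 2.84 CPM (1.76). None of these 8 names ends in "-int", but neither do 71 of the 91 rows at a mean of 1 CPM or more. IAPEz-int in the same library had 184 CPM, a value lowered by the share of Lars2 in the library's gene total. The library was the highest of the 12 in 24 of the 91 rows and the lowest in 7. The shares of gene rows and of other repeat rows past the same cuts were not counted. These counts are therefore not shown to be particular to LTR rows. In the same library the satellite row GSAT_MM had 1904 CPM, against at most 23.0 CPM in the others, 7SLRNA had 1047 CPM against at most 11.2 CPM, and L1Md_F2 had 241 CPM against at most 103 CPM. Its 8 LTR rows have no replicate, and the part of these other rows in them was not tested.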

How the results depend on the processing

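Without the block edgeR called 0 LTR rows in every comparison. With the replicate block 4 rows were lower with both compounds against Control, 14 with both against GW3965 and 5 with CT99021 over both backgrounds. In that order the counts of lower rows with the block were 4, 14 and 5 without the MER rows, 1, 8 and 4 with all 12 libraries, 4, 11 and 5 with DESeq2, 4, 16 and 6 without TMM factors, 3, 12 and 4 with no filter beyond 1 count, and 13, 20 and 7 without the libraries numbered 3. Repeat rows fitted on their own with the block gave 17 with both against GW3965. In that setting all 4 rows called with both against Control lost their call. So did all 5 rows called with CT99021 over both backgrounds. Without the block DESeq2 gave 1 lower row in CT99021 over both backgrounds. So did edgeR with a term that set the libraries numbered 3 and GW3965+CT99021 replicate 2 apart. That grouping cuts across the replicate numbers, and the basis for it is not given here. Without those 5 libraries and with the block, a fit of 6 libraries, lower counts were 16, 25 and 26, with 4 for CT99021 against Control, 4 for both against CT99021 and 4 for the interaction, and 1 row was higher with both against GW3965 and 1 with CT99021 over both backgrounds. With all 12 libraries and the block 2 were higher in the latter. Leaving out 1 library with the block, lower rows ranged over 0 to 1 for CT99021 against Control, 0 to 9 and 0 to 18 for both compounds against Control and against GW3965 (15 without Control replicate 3), and 1 to 11 (higher rows 0 to 1) for CT99021 over both backgrounds. Some log2 fold changes reversed. Without the block and with libraries left out, MMVL30-int with both against Control ranged from -1.20 without GW3965+CT99021 replicate 1 to 0.22 without Control replicate 1 and 0.25 in the fit of 6 libraries. With both against GW3965 it ranged from -1.31 without GW3965+CT99021 replicate 1 to 0.20 without GW3965 replicate 1, with 0.13 in the fit of 6. RLTRETN_Mm with both against GW3965 ranged from -1.15 in the fit of 6 to 0.055 without GW3965 replicate 2. MTA_Mm over both backgrounds with all 12 libraries had 0.012, and 0.022 with the block. The cause was not tested. The ratio of summed CPM to Control stayed within the spread of the libraries in every alternative run, at 1.01 to 1.13 for GW3965, 0.859 to 0.983 for CT99021 and 0.758 to 0.845 for both when 1 library was left out. The low counts of most LTR rows limit what could be called.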
